A study of Mus musculus with 33 samples.

Results

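Gene counts of 10 effector molecules of regulatory T cells (Tregs) were followed through 11 sorted cell subsets of a mouse model of islet transplant tolerance. The 10 genes were taken by symbol from the 31054 features counted in each library, through the identifiers of the GRCm38 annotation, and all 10 were found. They were Il10 and Tgfb1, which encode regulatory cytokines, Ebi3 and Il12a, whose products pair to form IL-35, Fgl2, which encodes a secreted fibrinogen-like suppressor, Gzmb, which encodes granzyme B, Entpd1 (CD39) and Nt5e (CD73), the ectoenzymes that turn extracellular ATP into adenosine, Areg, which encodes the growth factor amphiregulin, and Penk, which encodes the precursor of the enkephalin opioid peptides. All 10 were among the 25347 genes that reached 1 CPM in any library and were tested.

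Tregs restrain other immune cells by several routes at once. They secrete IL-10, TGF-β and IL-35, of which TGF-β is made in a latent form that must be released by integrins at the cell surface. They hydrolyse ATP to AMP with CD39 and AMP to adenosine with CD73, they can kill target cells with granzyme B, and they engage inhibitory Fc receptors with FGL2. Tregs of non-lymphoid tissues also make amphiregulin, an EGF receptor ligand linked to tissue repair, and proenkephalin is a known product of Tregs in several tissues.

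The mice were DEREG mice, which carry a transgene that places a diphtheria toxin receptor fused to eGFP under the Foxp3 promoter, so that Tregs were sorted as CD4+GFP+ cells and CD4+Foxp3- T cells as CD4+GFP- cells. Tolerant mice had received 4000 IEQ of porcine neonatal islet cell clusters under the renal capsule, MR-1 (an antibody against CD154) at 500 µg per mouse on days 0, 2, 4 and 6, and CTLA4-Fc at 500 µg per mouse on day 0, and their cells were sorted at day 100, while naive mice had no transplant and no treatment. The 7 Treg subsets were SP/naive, SP/CD127-/lo and SP/CD127hi Tregs of the spleen (SP), graft Tregs, and, from the draining lymph node (DLN), Tregs named DLN/naive, DLN/CD127-/lo and, last, DLN/CD127hi, of which the naive subsets came from naive mice and the others from tolerant mice. The 4 Foxp3- subsets were SP/naive CD4+ and SP/tolerant CD4+ T cells and SP/naive CD45+CD4- and SP/tolerant CD45+CD4- cells, each from the spleen.

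Each subset had 3 libraries, 33 in all. Libraries are described as pools of mice, but the relation of mice to the libraries of naive subsets is not clear from the methods, so that p-values measure the spread between these libraries, which may be in part technical. A NextSeq 500 read the 24 libraries of spleen and graft, with from 2550698 to 4615283 read pairs on genes, and a MiSeq read the 9 DLN libraries, with from 844039 to 1935323. The sequencer therefore cannot be told apart from the tissue, and naive lymph nodes came from female mice while the tolerant mice were male. Levels are given in CPM, which are counts on a common library size after TMM scaling. The detection limit was set at 3 counts in a library, the most that a listed 0 allows by counting error alone, or 0.650 to 1.18 CPM on the NextSeq 500 and 1.55 to 3.55 CPM on the MiSeq. Foxp3 was between 166 and 672 CPM in the 21 Treg libraries and between 0 and 8.20 CPM in the other 12 without overlap. The 6 T cell markers summed to between 2364 and 8557 CPM in the 27 Treg and CD4+ T cell libraries and to between 501 and 2015 CPM in the 6 CD45+CD4- libraries.

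Most of the effector genes were higher in splenic Tregs than in splenic CD4+Foxp3- T cells. Between Treg subsets, edgeR's quasi-likelihood test called none of them. It called 0.0829% of the values of all genes in spleen and graft and 0.575% in the DLN. DESeq2 made 4 calls in 30 values between Treg subsets of the DLN, beside 3.04% of the values of all genes. Gzmb at few counts was among these. When the 3 splenic Treg subsets were pooled against the 2 splenic CD4+ subsets, 7 of the 10 genes rose in Tregs (Il10, Fgl2, Gzmb, Entpd1, Nt5e, Areg and Penk) and none fell, beside 1.83% of all 25347 genes that were called (edgeR's quasi-likelihood test, adjusted p under 0.05 after Benjamini-Hochberg adjustment over all genes tested). The median log2 fold change was 5.05 over the 10 genes, or 4.39 with Areg at its lower bound, and -0.08 over all genes. Ebi3, Tgfb1 and Il12a did not pass the test. DESeq2 called the same 7 and Ebi3, beside 2.94% of all genes. As the genes were picked as known Treg products, with earlier results of these libraries known, the share called is a description of these 10 genes.

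In single comparisons of 3 libraries against 3, edgeR's quasi-likelihood test with all 33 libraries in the model called Fgl2 and Penk only. Both rose in SP/naive, SP/CD127-/lo, SP/CD127hi and graft Tregs against SP/naive CD4+ T cells, where the share of all genes called was 0.264%, 0.469%, 0.422% and 0.619% respectively. These 4 comparisons and that of tolerant with naive CD4+ T cells share the SP/naive CD4+ libraries. Both genes also rose in SP/CD127hi Tregs against SP/tolerant CD4+ T cells (0.324% of all genes called), while SP/CD127-/lo Tregs against the same cells gave no call among the 10 genes (0.284% of all genes called), with 7 of the 10 at an unadjusted p under 0.05, as were 7.2% of all genes, and 4 called by DESeq2.

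Other settings called more of the 10 genes between single Treg and CD4+ subsets. DESeq2 added Areg in all 6 of these comparisons, Il10, Gzmb and Entpd1 in 2 each and Ebi3 and Penk in 1 each. Of all genes it called 0.73%, 1.53%, 1.78% and 2.54% for SP/naive, SP/CD127-/lo, SP/CD127hi and graft Tregs against SP/naive CD4+ T cells, and 0.876% and 1.06% for SP/CD127-/lo and SP/CD127hi Tregs against SP/tolerant CD4+ T cells. When the model held just the 6 libraries of a comparison, edgeR's quasi-likelihood test added Il10 in 3, Areg and Nt5e in 2 each and Ebi3, Gzmb and Penk in 1 each. It then called 94, 185, 158, 95, 342 and 306 of all genes, in the order of the shares above. With all libraries in the model, these numbers were 67, 119, 107, 157, 72 and 82. Over the family with the pooled comparison, the share of the values of all genes was 1.88%, against 0.602% with all libraries. After ComBat-Seq, which adjusts counts for the sequencer and so for the tissue, it added Areg in 5 and lost Fgl2 and Penk in 1 each. Over the family with the pooled comparison, 0.357% of the values of all genes were then called. All libraries of spleen and graft came from 1 sequencer, so ComBat-Seq brings the DLN libraries into these comparisons.

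**Figure D1:**
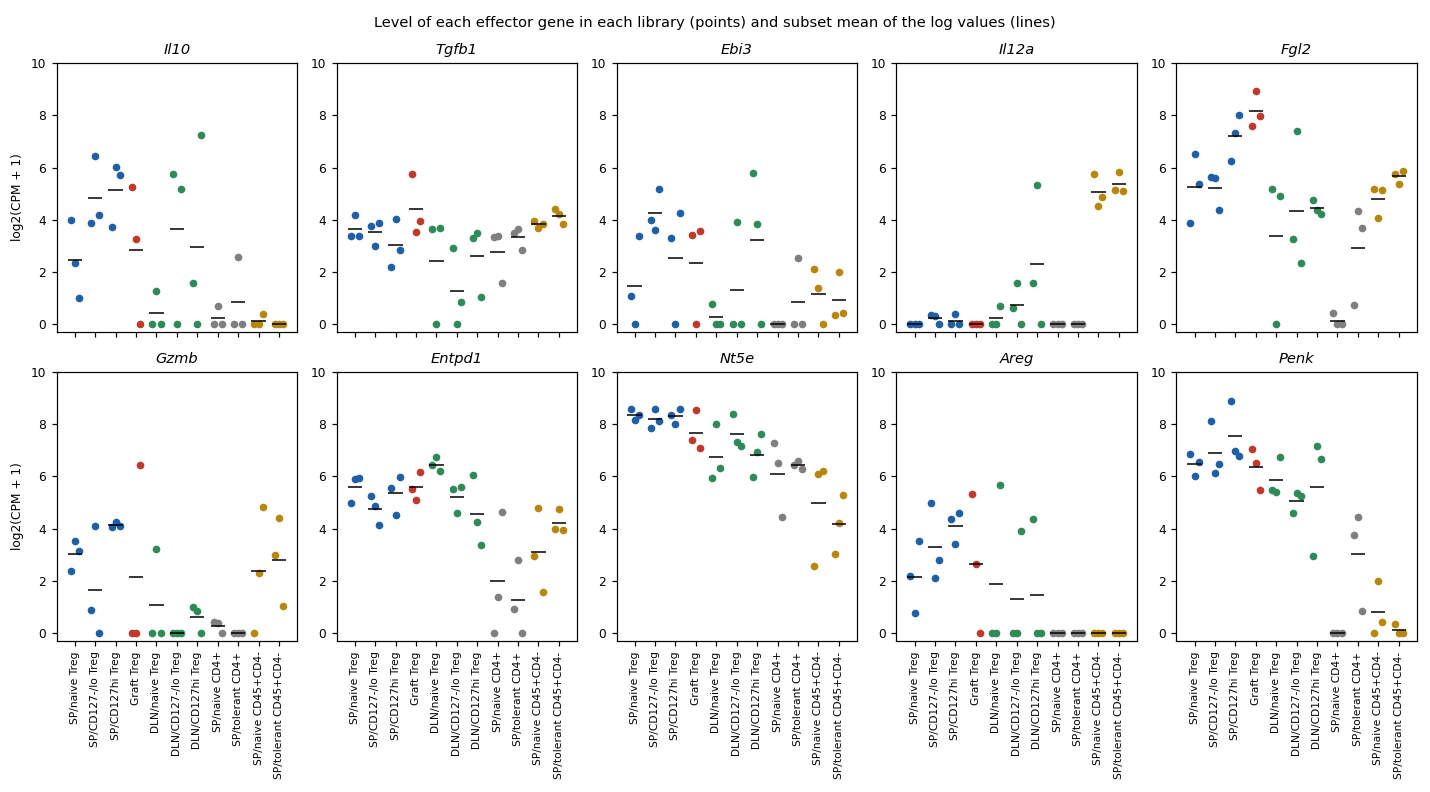
Level of each of the 10 genes in each of the 33 libraries, as log2(CPM + 1) on the vertical axis, by subset on the horizontal axis. Points are libraries (blue, splenic Tregs; red, graft Tregs; green, DLN Tregs; grey, CD4+Foxp3- T cells; ochre, CD45+CD4- cells) and lines are means of the 3 log values. Penk and Nt5e were above 3 counts in all 21 Treg libraries, whereas Il10, Ebi3, Gzmb and Areg were at 0 in single libraries of subsets in which another library was well above the limit.

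The 3 libraries of a subset often lay on both sides of the detection limit. Of the 110 combinations of a gene and a subset, 53 had all 3 libraries above 3 counts, 25 had all 3 at or below 3 counts, and 32 (29.1%) had libraries on both sides. At a mean of 5 to 50 CPM in a Treg subset, 14 of 36 combinations (38.9%) were on both sides, beside 41.5% of all combinations of a tested gene and a Treg subset in that range, so the spread of these genes was close to that of others of like level. In bulk libraries of sorted cells, fewer cells that express a gene and less RNA per cell cannot be told apart.

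Il10 (ENSMUSG00000016529, chromosome 1 from 131019845 to 131024974, forward strand) was highest in the CD127hi Tregs of either organ by mean. In SP/naive Tregs the 3 libraries had 14.9, 4.06 and 1.01 CPM, in SP/CD127-/lo Tregs 13.6, 85.0 and 17.3 CPM, and in SP/CD127hi Tregs 12.1, 63.7 and 50.9 CPM. Graft Tregs had 36.8, 8.51 and 0 CPM. The ranges of all 4 subsets overlapped, and the difference between SP/CD127hi and SP/naive Tregs, a log2 fold change of 2.66 ± 1.57 (SE), did not pass the test (adjusted p = 0.95).

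In the DLN, Il10 was listed at 0, 1.40 and 0 CPM in naive Tregs, at 52.9, 0 and 35.2 CPM in CD127-/lo Tregs and at 1.95, 0 and 151 CPM in CD127hi Tregs. A single library thus carried the DLN/CD127hi mean of 51.1 ± 86.8 CPM (SD, n = 3). DLN/CD127hi against DLN/naive Tregs gave a log2 fold change of 6.67 ± 1.99 (SE) with an adjusted p of 0.0772, which became 0.0214 without DLN/CD127hi replicate 2, the library at 0. In CD4+Foxp3- T cells the values were 0, 0.633 and 0 CPM in naive mice and 0, 4.98 and 0 CPM in tolerant mice, and in the CD45+CD4- cells 1 count was found in 6 libraries. Splenic Tregs had a log2 fold change of 5.05 ± 1.24 (SE) over splenic CD4+ T cells (adjusted p = 0.00803). It was 6.36 without SP/naive CD4+ replicate 2 and 7.69 without SP/tolerant CD4+ replicate 2, the CD4+ libraries with Il10 reads (adjusted p = 0.00562 and 0.00107). The call was lost under a stricter filter of 10 counts in 3 libraries (adjusted p = 0.0663). SP/CD127hi and SP/CD127-/lo Tregs against SP/naive CD4+ T cells had adjusted p of 0.0658 and 0.0725. Both passed with DESeq2, the compared libraries only, no filter and a term for the replicate number (0.01735 to 0.0451). The former also passed without SP/CD127hi replicate 1 (0.0484).

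Of the 8 genes listed for the IL-10 axis (receptor chains, kinases, Stat3, Socs3 and the regulators Prdm1 and Maf), 1 was higher in splenic Tregs than in splenic CD4+ T cells and none was lower. This was Maf, a transcription factor that drives Il10 transcription in T cells, at 755 ± 217 CPM (SD, n = 9) against 266 ± 92.2 CPM (SD, n = 6) (adjusted p = 0.000188), a call lost after ComBat-Seq (0.559) and kept in the other 9 of 10 alternatives (other tools, scalings, filters, counts and sets of libraries). In DLN/CD127hi against DLN/naive Tregs Maf was at 724 ± 165 against 249 ± 203 CPM (SD, n = 3 each, adjusted p = 0.0482), a call lost in 7 of 10 alternatives (adjusted p up to 0.802). The 8 macrophage markers summed to 693, 951 and 805 CPM in DLN/CD127hi and to 344, 2.10 and 429 CPM in DLN/naive Tregs, and their part in the genes called between these subsets was not tested. Il10rb, a chain of the IL-10 receptor, was lower in DLN/CD127-/lo than in DLN/naive Tregs, at 2.36 ± 4.09 against 57.1 ± 13.8 CPM (adjusted p = 0.0485), a call also lost in 7 of 10 alternatives (up to 0.780).

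Tgfb1 (ENSMUSG00000002603, chromosome 7 from 25687002 to 25705077, forward strand) was counted in Tregs, CD4+Foxp3- T cells and CD45+CD4- cells alike. The 9 splenic Treg libraries lay between 3.61 and 16.9 CPM, the 6 libraries of CD4+Foxp3- T cells between 1.96 and 11.5 CPM and the 6 of CD45+CD4- cells between 11.7 and 20.4 CPM. Graft Tregs had 52.5, 10.4 and 14.3 CPM, of which only the first lay above the CD45+CD4- libraries. The 18 comparisons gave no unadjusted p under 0.05 for Tgfb1, and splenic Tregs differed from splenic CD4+ T cells by a log2 fold change of 0.36 ± 1.01 (SE, adjusted p = 0.9999).

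Of the 10 genes of TGF-β activation and reception, 3 were higher (Lrrc32, Itgb8 and the receptor Tgfbr1) and 1 was lower in splenic Tregs than in splenic CD4+ T cells. Lrrc32, which encodes GARP and holds latent TGF-β at the Treg surface, was at 58.5 ± 21.5 CPM (SD, n = 9) against 0.291 ± 0.326 CPM (SD, n = 6) (adjusted p = 4.93e-09). Itgb8, the β chain of an integrin that frees TGF-β, was at 208 ± 92.6 CPM against 32.0 ± 16.9 CPM (adjusted p = 5.83e-05), and it was the gene whose mean log2 CPM over the 11 subsets was most like that of Nt5e. Tgfbr3, a co-receptor that presents TGF-β, was lower in Tregs, at 7.59 ± 8.12 against 73.7 ± 32.6 CPM (adjusted p = 0.0170). Of these calls, that of Lrrc32 was kept in all 10 alternatives, that of Itgb8 was lost after ComBat-Seq (0.0546), that of Tgfbr3 under the stricter filter (0.0667) and that of Tgfbr1 in 4 (up to 0.833).

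The chains of IL-35 had their highest levels in different subsets, though both were counted in some of the same libraries. Il12a (ENSMUSG00000027776, chromosome 3 from 68690644 to 68698547, forward strand), which encodes the p35 chain, had 52.5, 22.2 and 28.0 CPM in SP/naive CD45+CD4- cells and 34.3, 55.2 and 33.6 CPM in SP/tolerant CD45+CD4- cells. The 6 libraries of CD4+Foxp3- T cells and the 6 of SP/naive and graft Tregs had no Il12a count. In SP/CD127-/lo and SP/CD127hi Tregs no library had more than 1 count. In the DLN, 1 library stood apart, DLN/CD127hi replicate 2 at 39.4 CPM, beside 1.95 and 0 CPM in the other two libraries of that subset.

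Markers of B cells were read beside Il12a, because the CD45+CD4- cells held 3513 to 7575 CPM summed over the 8 B cell markers and the genes most like Il12a over the 11 subsets were Srpk3, Dennd5b and the B cell factor Pax5 (Pearson r = 0.998, 0.994 and 0.991 over 11 subset means). In DLN/CD127hi Tregs the summed B cell markers were 587, 419 and 274 CPM in replicates 1, 2 and 3, all 8 with reads, so that the library with the most Il12a was not the one with the most B cell signal. Their part in the Il12a value was not tested. Il12a was not called in any comparison by edgeR's quasi-likelihood test, in which DLN/CD127hi against DLN/naive Tregs had a log2 fold change of 5.74 ± 2.22 (SE, adjusted p = 0.261). DESeq2 called it in that comparison (log2 fold change 6.00 ± 1.995 SE, adjusted p = 0.0376).

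Ebi3 (ENSMUSG00000003206, chromosome 17 from 55952640 to 55957022, forward strand), the partner chain, overlaps exons of Gm16712, an antisense gene on the reverse strand of chromosome 17 from 55954771 to 55959381. The count over both strands leaves out reads that fall on both genes, and it kept 572 of 1565 read pairs (36.55%) that the single-strand counts assigned to Ebi3, against at least 99.91% for each of the other 9 genes. As the libraries were not stranded, reads of Ebi3 and of Gm16712 cannot be told apart within the overlap. Ebi3 is therefore given under both counts.

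In the count over both strands, Ebi3 had 1.10, 0 and 9.34 CPM in SP/naive Tregs, 14.97, 11.3 and 35.5 CPM in the CD127-/lo and 8.92, 0 and 17.9 CPM in the CD127hi Tregs of the spleen, and 9.75, 0 and 10.7 CPM in graft Tregs. With the single-strand counts summed, the same libraries had 3.03, 6.09 and 18.7 CPM, then 42.4, 26.4 and 75.9 CPM, then 21.4, 1.53 and 48.6 CPM, and 39.5, 0 and 26.2 CPM. SP/CD127-/lo Tregs were thus above all SP/naive Treg libraries under either count. That difference, a log2 fold change of 2.54 ± 1.91 (SE), did not pass the test (adjusted p = 0.859, and 0.874 with the strands summed), nor did SP/CD127hi against SP/naive Tregs (1.35 ± 1.84 SE, adjusted p = 1).

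Ebi3 had no count in SP/naive CD4+ T cells under either way of counting, and SP/tolerant CD4+ T cells had 0, 4.73 and 0 CPM, or 2.05, 9.97 and 0 CPM with the strands summed. In the CD45+CD4- cells it reached 3.36 CPM, or 21.99 CPM with the strands summed. Splenic Tregs had a log2 fold change of 5.04 ± 1.55 (SE) over splenic CD4+ T cells with an adjusted p of 0.0622, which became 0.00878 with the strands summed, 0.0421 in the likelihood ratio test and 0.0486 with DESeq2. Without SP/tolerant CD4+ replicate 2 the log2 fold change was 7.64 (adjusted p = 0.0149), and without SP/CD127hi replicate 2 it was 5.23 (adjusted p = 0.0438). Summing the strands also brought SP/CD127-/lo, SP/CD127hi and graft Tregs against SP/naive CD4+ T cells under the threshold (adjusted p = 0.0207, 0.0490 and 0.0432). In the DLN, Ebi3 was at 0.710, 0 and 0 CPM in naive, 0, 13.9 and 0 CPM in CD127-/lo and 54.5, 13.4 and 0 CPM in CD127hi Tregs. With the strands summed, the naive values were the same, and the others were 7.63, 49.8 and 0 CPM and 90.5, 48.9 and 2.07 CPM. By the count over both strands, Ebi3 and Il12a were both above 3 counts in 1 of the 21 Treg libraries, DLN/CD127hi replicate 2, and in 3 of the 6 CD45+CD4- libraries. Il12a alone was above 3 counts in that 1 Treg library and in all 6 CD45+CD4- libraries. With the strands summed, Ebi3 had 28, 17 and 0 counts in naive and 10, 80 and 34 in tolerant CD45+CD4- libraries. More of these libraries then had both genes above 3 counts.

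**Figure D2:**
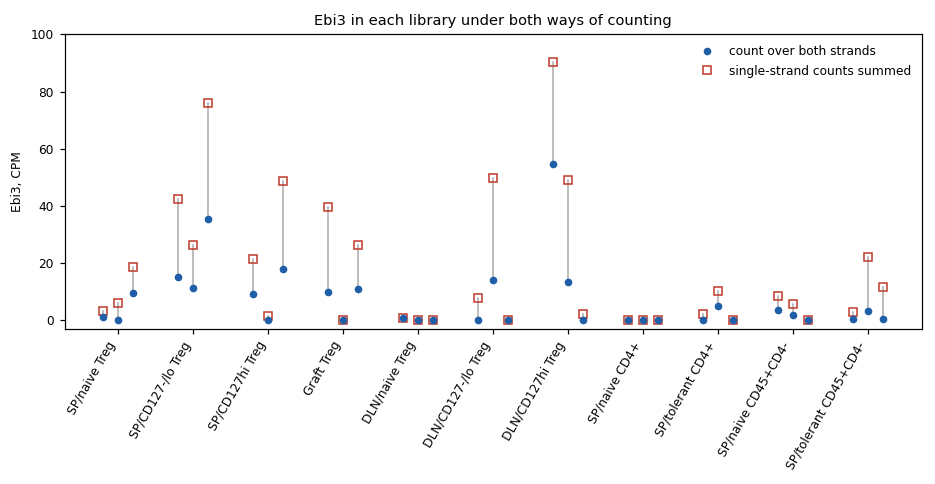
Ebi3 in each library, in CPM on the vertical axis, by subset on the horizontal axis. Circles are counts over both strands, which leave out read pairs shared with the antisense gene, squares are the single-strand counts summed, and grey lines join the same library. In SP/CD127-/lo Tregs the values were 14.97, 11.3 and 35.5 CPM against 42.4, 26.4 and 75.9 CPM, and SP/naive CD4+ T cells were at 0 under both.

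Of the 9 other chains, receptors and signal transducers of the IL-12 family, none was called in any of the 18 comparisons or in the interaction (edgeR's quasi-likelihood test). Of all genes, 0.0197% to 1.83% were called in these. At such shares a list of this size may hold no call, so the absence is no result about the list. Il12b, Il23a and Il27, the partner chains of the related cytokines, were among them.

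Fgl2 (ENSMUSG00000039899, chromosome 5 from 21372642 to 21378374, forward strand) had its highest level in graft Tregs, and it was higher in splenic Tregs than in splenic CD4+ T cells by 5.71 ± 0.80 (SE) on the log2 scale (adjusted p = 7.69e-09). Its 3 libraries there had 189, 486 and 253 CPM. SP/CD127hi Tregs followed with 74.3, 159.8 and 257 CPM, whereas SP/naive Tregs had 13.8, 91.0 and 40.2 CPM and SP/CD127-/lo Tregs 48.9, 47.3 and 19.9 CPM. All graft libraries lay above all SP/naive and SP/CD127-/lo libraries, and all SP/CD127hi libraries above all SP/CD127-/lo libraries.

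These differences between Treg subsets did not pass the adjustment over all genes. The log2 fold change of Fgl2 in graft Tregs was 2.998 ± 0.93 (SE) over SP/CD127-/lo Tregs (unadjusted p = 0.00147, adjusted p = 0.327) and 2.68 ± 0.92 over SP/naive Tregs (0.00390 and 0.336). SP/CD127hi over SP/CD127-/lo Tregs gave 2.08 ± 0.90 (SE, 0.0217 and 0.601). In graft replicates 1, 2 and 3 the 8 macrophage markers summed to 75.8, 12.6 and 514 CPM, with C1qa and Adgre1 at 0, and the 6 kidney epithelium markers to 117, 890.2 and 15.8 CPM, so that the library with the most Fgl2 had the least macrophage signal and the most kidney signal. The part of kidney cells in its Fgl2 value was not tested.

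In the DLN the order was not that of the spleen. DLN/CD127-/lo Tregs had 8.72, 167 and 4.09 CPM, DLN/CD127hi Tregs 26.3, 19.7 and 17.6 CPM, and DLN/naive Tregs 34.8, 0 and 29.2 CPM. Macrophage markers followed the order of Fgl2 over the libraries of DLN/CD127-/lo Tregs only. In DLN/naive Tregs they summed to 344, 2.10 and 429 CPM. They were lowest in the library with no Fgl2, while the other libraries ran against the order of Fgl2. The high library, DLN/CD127-/lo replicate 2, had 838 CPM of summed macrophage markers against 118 and 101 CPM in the other two, while the DLN/CD127hi libraries had 693, 951 and 805 CPM beside 17.6 to 26.3 CPM of Fgl2. The part of these cells in the Fgl2 values was not tested. The difference of the CD127hi minus CD127-/lo contrast between DLN and spleen was -3.57 ± 1.27 (SE) on the log2 scale for Fgl2 (unadjusted p = 0.00541, adjusted p = 0.353). None of the 10 genes passed that interaction test, in which 0.118% of all genes were called, while DESeq2 called 1 of them, Gzmb, and 1.16% of all genes. For Gzmb, the DLN/CD127hi libraries held 2 counts in all and the DLN/CD127-/lo libraries 0.

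In CD4+Foxp3- T cells, Fgl2 was near the limit in naive mice (0.328, 0 and 0 CPM) and was found in tolerant mice (0.684, 19.2 and 11.8 CPM). Against SP/naive CD4+ T cells, which held 1 read pair of Fgl2 in all, the ratio of summed counts, each scaled to its library size, was 397 in SP/naive Tregs (95% exact interval 70.9 to 15709, for counting error only) and 2719 in graft Tregs (488 to 107429). The adjusted p of these comparisons ranged from 9.95e-10 in graft Tregs to 5.60e-06 in SP/CD127-/lo Tregs. Without SP/naive CD4+ replicate 1, the library with that read pair, the fitted log2 fold change went from 8.27 to 10.1 in SP/naive, from 7.95 to 9.82 in SP/CD127-/lo, from 10.03 to 11.9 in SP/CD127hi and from 10.95 to 12.8 in graft Tregs, and from 5.71 to 6.64 between splenic Tregs and splenic CD4+ T cells. Without SP/naive Treg replicate 2 it was 7.43 in SP/naive Tregs. Against SP/tolerant CD4+ T cells, the log2 fold change was 3.95 ± 0.98 (SE) for SP/CD127hi Tregs (adjusted p = 0.0280) and 1.87 ± 0.90 for SP/CD127-/lo Tregs (adjusted p = 0.636). The call in SP/CD127hi Tregs was lost without SP/CD127hi replicate 3 and without SP/tolerant CD4+ replicate 1 or 3, with adjusted p up to 0.361, and without SP/tolerant CD4+ replicate 2 the log2 fold change was 4.71. It was also lost after ComBat-Seq, in the likelihood ratio test, with the strands summed and under the stricter filter (adjusted p = 0.326, 0.0869, 0.0819 and 0.196). Fgl2 was also present in all 6 CD45+CD4- libraries, at 35.4, 15.98 and 34.4 CPM in naive and 53.6, 40.7 and 57.4 CPM in tolerant mice. The inhibitory and activating Fc receptors to which FGL2 binds, Fcgr2b and Fcgr3, were not called in any comparison, beside 0.0197% to 1.83% of all genes.

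Gzmb (ENSMUSG00000015437, chromosome 14 from 56258838 to 56262260, reverse strand) was above the limit in all SP/naive and SP/CD127hi Treg libraries. SP/CD127hi Tregs had 15.5, 18.1 and 15.9 CPM, all above the 4.13, 10.49 and 7.83 CPM of SP/naive Tregs, with a log2 fold change of 1.14 ± 1.77 (SE, adjusted p = 1). SP/CD127-/lo Tregs had 0.848, 16.1 and 0 CPM, and graft Tregs 0, 0 and 85.8 CPM. Graft replicate 3, which carried all graft counts of Gzmb, was also the graft library with the most macrophage signal, and its 45.6 CPM of CD8 T and NK cell markers stood beside 45.8 and 0.274 CPM in graft replicates 1 and 2. The part of these cells in the Gzmb value was not tested. Of the 9 DLN Treg libraries, 1 was above 3 counts, at 8.41 CPM in DLN/naive Tregs.

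The 6 libraries of CD4+Foxp3- T cells held 2 read pairs of Gzmb, and splenic Tregs were higher with a log2 fold change of 6.39 ± 1.58 (SE, adjusted p = 0.00848) and a ratio of summed counts of 106 (95% exact interval 29.1 to 878, for counting error only). Without SP/CD127-/lo replicate 2 the log2 fold change was 5.18 and the adjusted p 0.0540. The CD45+CD4- cells, which include CD8 T and NK cells, had 0, 3.91 and 27.0 CPM in naive and 6.91, 20.3 and 1.02 CPM in tolerant mice. Of the 10 other genes of the cytotoxic granule, 2 were higher (Srgn and Gzmc) and 1 lower in splenic Tregs than in splenic CD4+ T cells. Srgn, the proteoglycan on which granzymes are stored, was at 2168 ± 744 CPM (SD, n = 9) against 1014 ± 307 CPM (SD, n = 6) (adjusted p = 2.68e-05), whereas Gzmk was at 0.143 ± 0.285 against 16.5 ± 19.6 CPM (adjusted p = 0.000519). The call of Gzmk was kept in all 10 alternatives, that of Srgn was lost after ComBat-Seq and in the likelihood ratio test (0.974 and 0.0917) and that of Gzmc in 4 (up to 0.131). Gzma was called in 4 comparisons, with each call lost in 4 to 8 alternatives, and each rested on 1 library at 65.8 CPM in SP/naive CD4+ T cells or 31.3 CPM in SP/CD127hi Tregs.

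Nt5e (ENSMUSG00000032420, chromosome 9 from 88327197 to 88372092, forward strand) was high in all splenic Treg libraries. Its values were 378, 285 and 328 CPM in SP/naive, 229, 382 and 278 CPM in SP/CD127-/lo and 325, 258 and 384 CPM in SP/CD127hi Tregs. CD4+Foxp3- T cells had 156, 89.6 and 20.8 CPM in naive and 85.9, 94.2 and 76.2 CPM in tolerant mice, so that the 9 Treg libraries lay above the 6 others without overlap. The log2 fold change was 1.86 ± 0.41 (SE, adjusted p = 0.00161), a call lost after ComBat-Seq (log2 fold change 1.86, adjusted p = 0.304). It was kept in the other 9 alternatives, among them the fit of the libraries of 1 sequencer only. None of the 6 comparisons of single subsets passed with all libraries in the model. With only the compared libraries, SP/CD127-/lo and SP/CD127hi Tregs against SP/tolerant CD4+ T cells passed (log2 fold change 1.82 and 1.93, adjusted p = 0.00251 and 0.00223). Graft Tregs had 167, 370.5 and 133 CPM, and the 9 DLN Treg libraries ranged from 59.6 to 332 CPM. CD45+CD4- cells had 4.89, 67.5 and 73.4 CPM in naive and 7.18, 17.3 and 37.7 CPM in tolerant mice (log2 fold change -1.23 ± 0.61 SE, unadjusted p = 0.0431, adjusted p = 1).

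Entpd1 (ENSMUSG00000048120, chromosome 19 from 40612366 to 40741602, forward strand), which acts before Nt5e on ATP, was highest in DLN/naive Tregs, at 84.5, 104 and 72.6 CPM. All 3 of these libraries lay above the DLN/CD127-/lo Tregs (44.2, 22.9 and 47.4 CPM) and the DLN/CD127hi Tregs (65.2, 18.1 and 9.33 CPM) of tolerant mice, but neither difference passed the test (log2 fold change -1.19 ± 1.14 and -1.50 ± 1.16 SE, adjusted p = 0.667 and 0.619). In these 2 comparisons the median over all genes was 0.58 and 0.40 on the log2 scale, so the values of Entpd1 relative to that median are lower still. The median of 0.40 applies as well to Il10, Il12a, Maf, Id2 and Enpp1, given here as higher in DLN/CD127hi than in DLN/naive Tregs. Relative to it, their increases are smaller. SP/naive Tregs had 30.6, 58.2 and 60.1 CPM, SP/CD127-/lo Tregs 36.4, 27.9 and 16.7 CPM, SP/CD127hi Tregs 45.4, 22.04 and 61.9 CPM and graft Tregs 44.1, 33.2 and 70.9 CPM, with overlapping ranges.

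CD4+Foxp3- T cells had 0, 1.58 and 23.5 CPM of Entpd1 in naive and 0.912, 5.98 and 0 CPM in tolerant mice. Splenic Tregs were higher with a log2 fold change of 3.13 ± 0.84 (SE, adjusted p = 0.0197). The adjusted p went to as much as 0.109 without SP/naive CD4+ replicate 1 or 2 or SP/tolerant CD4+ replicate 1 or 3, and it was 0.182 after ComBat-Seq. The log2 fold change was 4.79 without SP/naive CD4+ replicate 3 and 4.26 without SP/tolerant CD4+ replicate 2. Entpd1 and Nt5e were both above 3 counts in all 21 Treg libraries and in 4 of 6 libraries of CD4+Foxp3- T cells. Of the 10 other genes of the purine pathway, none was called between splenic Tregs and splenic CD4+ T cells, and Enpp1, an ectoenzyme that cleaves ATP to AMP, was higher in DLN/CD127hi than in DLN/naive Tregs (31.5 ± 27.1 against 0.947 ± 1.64 CPM, adjusted p = 0.0455), a call lost in 6 of 10 alternatives (up to 0.694).

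Areg (ENSMUSG00000029378, chromosome 5 from 91139599 to 91148432, forward strand) was found in Tregs alone among the subsets measured. The 12 libraries of CD4+Foxp3- T cells and CD45+CD4- cells held no read pair of Areg, which allows up to 3 counts in each. SP/naive Tregs had 3.58, 0.677 and 10.6 CPM, SP/CD127-/lo Tregs 30.8, 3.27 and 5.86 CPM and SP/CD127hi Tregs 19.7, 9.49 and 22.9 CPM, so that all 9 splenic Treg libraries held reads. The mean of splenic Tregs was at least 13.4-fold higher than the limit of 3 counts per library in splenic CD4+ T cells (fitted log2 fold change 7.94 ± 1.75 SE, adjusted p = 0.00169). Graft Tregs had 39.0, 5.21 and 0 CPM. In the DLN each subset had 1 library with reads, at 50.2 CPM in naive, 13.9 CPM in CD127-/lo and 19.5 CPM in CD127hi Tregs, and 2 at 0.

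Of the 9 genes listed as EGF family members and inducers of amphiregulin, 1 was called, Il1rl1, which encodes the IL-33 receptor ST2. It had 27.5 ± 14.6 CPM in SP/naive, 9.36 ± 6.58 CPM in SP/CD127-/lo, 166 ± 63.6 CPM in SP/CD127hi and 244 ± 200.2 CPM in graft Tregs (SD, n = 3 each). Against SP/naive CD4+ T cells, at 0.528 ± 0.914 CPM, the adjusted p was 7.33e-06 for graft, 3.70e-05 for SP/CD127hi and 0.0147 for SP/naive Tregs. The last call was lost in 6 of 10 alternatives (up to 0.350), and those of graft and SP/CD127hi Tregs were kept in all 10. Il1rl1 was also called in SP/CD127hi Tregs against SP/tolerant CD4+ T cells (adjusted p = 0.0228), a call lost in 5 of 10 alternatives (up to 0.265). For Areg, SP/CD127hi over SP/CD127-/lo Tregs gave a log2 fold change of 0.38 ± 1.78 (SE, adjusted p = 1).

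Penk (ENSMUSG00000045573, chromosome 4 from 4133531 to 4138819, reverse strand) had the smallest adjusted p of the 10 genes between splenic Tregs and splenic CD4+ T cells (log2 fold change 7.69 ± 0.89 SE, adjusted p = 1.36e-12). Its libraries had 115, 63.9 and 92.7 CPM in SP/naive, 275, 68.7 and 86.8 CPM in SP/CD127-/lo, 468, 124 and 108 CPM in SP/CD127hi and 132, 90.6 and 43.5 CPM in graft Tregs. In the DLN it had 44.0, 41.3 and 105 CPM in naive, 23.4, 39.8 and 36.8 CPM in CD127-/lo and 6.81, 141 and 101 CPM in CD127hi Tregs. All 21 Treg libraries were above the limit, and the ranges of the splenic and graft subsets overlapped.

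SP/naive CD4+ T cells held no Penk read pair in 3 libraries. Relative to the limit of 3 counts per library, Penk was at least 87.3-fold higher in SP/naive, 138-fold in SP/CD127-/lo, 225-fold in SP/CD127hi and 85.6-fold in graft Tregs, with adjusted p from 2.02e-10 to 2.14e-08. The fitted log2 fold change was 10.8 without SP/CD127-/lo replicate 1, in place of 11.7, and 11.4 without SP/CD127hi replicate 1, in place of 12.4. Against SP/tolerant CD4+ T cells, the log2 fold change was 4.36 ± 0.98 (SE) for SP/CD127hi Tregs (adjusted p = 0.00870) and 3.66 ± 0.95 for SP/CD127-/lo Tregs (adjusted p = 0.0512). The former call was lost without SP/CD127hi replicate 1 and without SP/tolerant CD4+ replicate 1 or 3 (adjusted p up to 0.194), and after ComBat-Seq and under the stricter filter (0.262 and 0.0958). Its log2 fold change was 3.35 without SP/CD127hi replicate 1 and 5.15 without SP/tolerant CD4+ replicate 2. The comparison with SP/CD127-/lo Tregs passed without SP/CD127-/lo replicate 2 (adjusted p = 0.0469) and in 6 of 10 alternatives, which were DESeq2, RLE factors, the compared or NextSeq 500 libraries only, no filter and the replicate block (0.00326 to 0.0412). The most like genes over the 11 subset means were Cish, D830030K20Rik and Foxp3 (Pearson r = 0.973, 0.969 and 0.956), a description of 11 points from the same libraries. Of the 9 genes that process or receive opioid peptides, none was called in any comparison, beside 0.0197% to 1.83% of all genes.

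**Figure D3:**
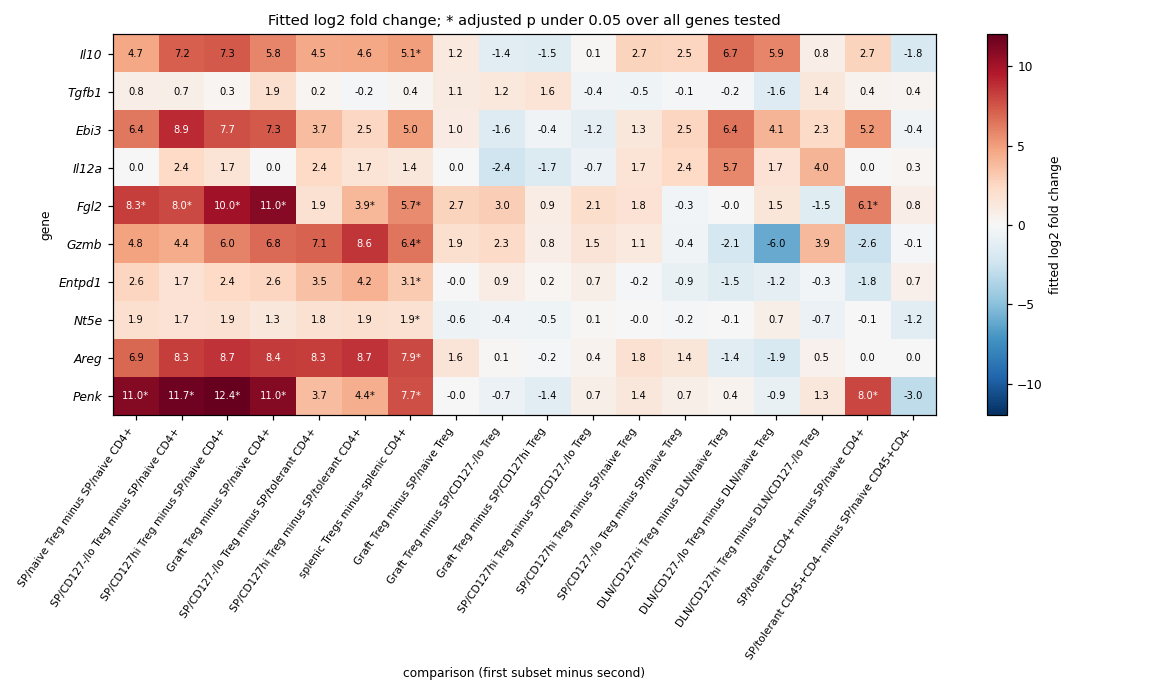
Fitted log2 fold change of each of the 10 genes in each of the 18 comparisons, with the first subset minus the second on the horizontal axis and red for higher in the first. Asterisks mark an adjusted p under 0.05 over all genes tested (edgeR's quasi-likelihood test). The 19 calls stand in comparisons that involve CD4+Foxp3- T cells, and none stands among Treg subsets, where the fitted values range from -6.04 for Gzmb in DLN/CD127-/lo minus DLN/naive Tregs to 6.67 for Il10 in DLN/CD127hi minus DLN/naive Tregs.

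Between tolerant and naive CD4+Foxp3- T cells, edgeR's quasi-likelihood test also called Penk and Fgl2, 2 of the 10 genes. DESeq2, which called 0.324% of all genes here, called Gzmb besides, as lower in tolerant mice (adjusted p = 0.000114), on 1, 1 and 0 read pairs in the naive and none in the tolerant libraries. Penk was at 0 in the 3 naive libraries and at 12.5, 20.7 and 0.773 CPM in the tolerant ones, at least 10.9-fold higher by the mean (fitted log2 fold change 8.05 ± 1.47 SE, adjusted p = 0.000343). Fgl2 rose by 6.08 ± 1.27 (SE) on the log2 scale (adjusted p = 0.00462), and the share of all genes called was 0.107%. In replicates 1, 2 and 3 of SP/tolerant CD4+ T cells, Foxp3 was at 0.456, 1.495 and 5.15 CPM, and in those of SP/naive CD4+ T cells at 8.20, 0.317 and 0.392 CPM. EGFP had no count in any of the 6. The part of any Tregs among the sorted cells in the Penk and Fgl2 values was not tested.

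Both calls were lost under some settings. Neither gene passed with the compared libraries only in the model, after ComBat-Seq or under the stricter filter, where the adjusted p reached 0.449 for Penk and 0.542 for Fgl2, and Fgl2 did not pass without SP/naive CD4+ replicate 2 or SP/tolerant CD4+ replicate 2 (adjusted p up to 0.0655). The log2 fold change of Fgl2 was 7.94 without SP/naive CD4+ replicate 1 and 5.32 without SP/tolerant CD4+ replicate 2, and that of Penk was 7.23 without the latter. In CD45+CD4- cells none of the 10 genes was called between tolerant and naive mice (0.0355% of all genes), with 2 of the 10 (Nt5e and Penk) at an unadjusted p under 0.05, as were 4.46% of all genes, and none called by DESeq2 (0.15% of all genes).

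**Figure D4:**
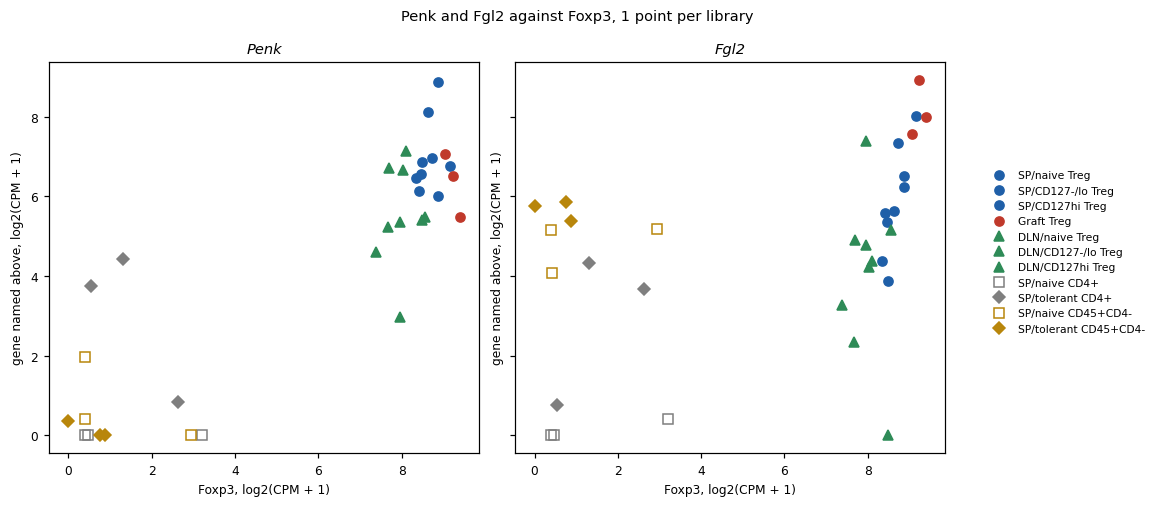
Penk (left) and Fgl2 (right) against Foxp3, each as log2(CPM + 1), with 1 point per library. Circles are splenic (blue) and graft (red) Tregs, green triangles DLN Tregs, grey symbols CD4+Foxp3- T cells and ochre symbols CD45+CD4- cells (squares, naive; diamonds, tolerant). The tolerant CD4+Foxp3- libraries with 20.7 and 12.5 CPM of Penk had 1.495 and 0.456 CPM of Foxp3, whereas CD45+CD4- cells held 15.98 to 57.4 CPM of Fgl2 beside 0 to 2.93 CPM of Penk.

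Between Treg subsets, 6 comparisons in spleen and graft and 3 in the DLN gave no call among the 10 genes (edgeR's quasi-likelihood test). Over all genes, the share called was 0.13%, 0.0829% and 0.103% for graft Tregs against SP/naive, SP/CD127-/lo and SP/CD127hi Tregs, and 0.0907% for SP/CD127hi against SP/CD127-/lo Tregs. It was 0.0197% and 0.071% for SP/CD127hi and SP/CD127-/lo against SP/naive Tregs. In the DLN it was 0.951% for CD127hi against naive, 0.355% for CD127-/lo against naive and 0.418% for CD127hi against CD127-/lo Tregs. At an unadjusted p under 0.05 there were 1, 1, 0, 1, 1 and 0 of the 10 genes in the 6 comparisons of spleen and graft, and 3, 2 and 1 in the 3 of the DLN. Of all genes, 7.93%, 7.66%, 8.73%, 6.74%, 5.09% and 5.46% were under that p in spleen and graft and 10.6%, 8.79% and 8.75% in the DLN, in the same order of comparisons. DESeq2 called none of the 10 in spleen and graft, where it called 0.722%, 0.785%, 1.03%, 0.359%, 0.13% and 0.15% of all genes. It made 4 calls in the DLN, where it called 3.78%, 2.47% and 2.88% of all genes, and these were Il10 and Il12a in CD127hi against naive Tregs and Gzmb in both comparisons with CD127-/lo Tregs, a subset with no Gzmb count. On the other side of the Gzmb calls were 12 counts in 1 DLN/naive library and 1, 1 and 0 counts in DLN/CD127hi Tregs.

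The subsets were set in the order of their mean level for each gene. Among the 10 orders of the 11 subsets, the ranges of neighbours did not overlap in 5 of 100 places, beside 1.11% of places over all 25347 genes. These were Fgl2 between SP/tolerant and SP/naive CD4+ T cells, Entpd1 between DLN/naive Tregs and the next subset, SP/naive Tregs, Nt5e between SP/tolerant CD4+ T cells and SP/naive CD45+CD4- cells, and Penk between DLN/naive and DLN/CD127-/lo Tregs and between the latter and SP/tolerant CD4+ T cells. Below the Treg subsets, Penk was at 1.09 ± 1.61 CPM in SP/naive CD45+CD4- cells (SD, n = 3), from 0, 2.93 and 0.322 CPM.

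The genes of most like pattern differed from member to member. By Pearson r of mean log2 CPM over the 11 subset means, among 12929 genes, these were Gm8206, Ccn4 and Itm2c for Il10 (r = 0.958, 0.9496 and 0.927) and Bcl2l12, Tmem109 and Atp6v1a for Tgfb1 (0.940, 0.938 and 0.935). For Ebi3 they were Arrdc4, Chst2 and Rbpms2 (0.914, 0.902 and 0.880), and for Fgl2 they were Ank, Ap2b1 and Icam1 (0.928, 0.903 and 0.890). Gzmb was most like Arl13b, Adora2a and Ssh1 (0.942, 0.931 and 0.924), and Entpd1 was most like Bicd1, Mki67 and Bmyc (0.942, 0.880 and 0.871). Nt5e was most like Itgb8, Tox and Igtp (0.978, 0.948 and 0.943), and Areg was most like Gm3696, Gm3500 and the EGFP transgene itself (0.957, 0.953 and 0.9501). The 11 points share libraries and the contrast of Tregs with other cells, so these values carry no test.

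Transcription factors listed as regulators of effector Tregs were examined beside their products. Of 11, 4 were higher (Ikzf2, Foxp3, Gata3 and Maf) and 1 was lower (Id2) in splenic Tregs than in splenic CD4+ T cells. Of all genes, 1.83% were called there. These cells were sorted by GFP under the Foxp3 promoter, so the sort set the Foxp3 call in advance. Ikzf2, which encodes Helios, was also higher in graft than in SP/naive Tregs, at 9652 ± 4320 against 4574 ± 1138 CPM (SD, n = 3 each, adjusted p = 0.00353), and in graft than in SP/CD127hi Tregs (adjusted p = 0.0391), in comparisons that called none of the 10 effector genes. Both of these calls were lost in 7 of 10 alternatives (up to 0.609 and 0.639). Id2, which was lower in splenic Tregs than in splenic CD4+ T cells (log2 fold change -1.29, adjusted p = 0.000790), was higher in graft than in SP/naive Tregs (2.41, 0.000533), in graft than in SP/CD127-/lo Tregs (1.85, 0.0477) and in DLN/CD127hi than in DLN/naive Tregs (2.41, 0.000200). These calls of Id2 were lost in 1, 1, 5 and 3 of 10 alternatives, and that of Gata3 in 5. In CD45+CD4- cells of tolerant mice Maf was lower than in those of naive mice, at 8.503 ± 7.36 against 62.0 ± 57.9 CPM (adjusted p = 1.86e-05), a call lost in 4 of 10 alternatives (up to 0.347).

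Scaled to exon length, Penk had the highest mean in most Treg subsets. It had the highest CPM per kb of exon in 5 of the 7 Treg subsets, from 38.8 ± 21.97 in DLN/naive to 143 ± 124 in SP/CD127hi Tregs (SD, n = 3). In graft Tregs it was second at 54.3 ± 27.1, behind Fgl2 at 81.7 ± 41.2, and in DLN/CD127-/lo Tregs Nt5e was highest at 24.4 ± 12.3. In each of the 7 Treg subsets the range of the gene with the highest mean overlapped that of at least 1 other member, such as Penk and Nt5e in SP/naive, Penk and Fgl2 in SP/CD127hi and graft, and Penk and 7 others in DLN/CD127hi Tregs. In CD4+Foxp3- T cells Nt5e came first, at 10.3 ± 7.85 per kb in naive and 9.93 ± 1.05 per kb in tolerant mice, and in CD45+CD4- cells Il12a came first, at 20.1 ± 9.48 and 24.1 ± 7.24 per kb. These values use the count over both strands, which for Ebi3 keeps 36.55% of the read pairs. With the strands summed, Ebi3 was at 41.8 ± 21.9 per kb in SP/CD127-/lo and 40.9 ± 38.3 per kb in DLN/CD127hi Tregs, the second highest mean in both, in place of 17.8 and 19.6 per kb.

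**Figure D5:**
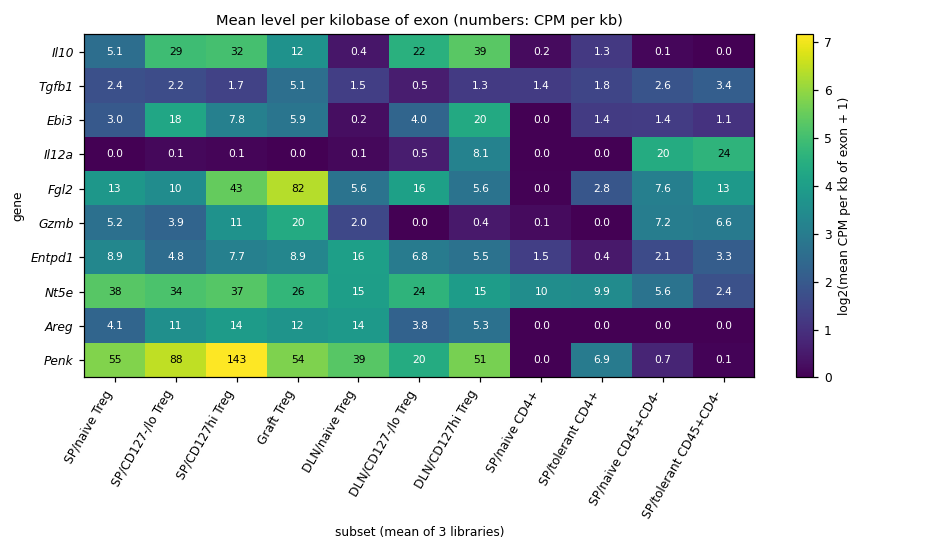
Mean of 3 libraries in CPM per kb of exon, for each of the 10 genes (rows) and 11 subsets (columns), with colour on a log2 scale and values written in each cell, from the count over both strands, which keeps 36.55% of the read pairs of Ebi3. Penk leads 5 of the 7 Treg subsets, Fgl2 leads graft Tregs at 81.7 and Il12a leads the CD45+CD4- cells at 20.1 and 24.1.

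Promoter sequence is shown for Fgl2, Gzmb and Areg because these genes rose in splenic Tregs and hold motifs of signal-dependent factors within 250 bases before their RefSeq start. The AP-1 motif TGANTCA was found in the windows of Fgl2 and Gzmb and in 6.75% of all 32851 mouse promoter windows of this length, searched on both strands. Fgl2 also holds the GAS motif of STAT factors, TTCNNNGAA (7.02% of windows), and Areg holds the CRE core TGACGTCA (1.55%), which does not overlap another match. Capitals mark these matches, which are a description of the letters only. Windows are on GRCm38.p6, 5′ to 3′ on the gene's strand, at chr5:21372423-21372672 (forward) for Fgl2, chr14:56262335-56262584 (reverse) for Gzmb and chr5:91139349-91139598 (forward) for Areg.
Fgl2: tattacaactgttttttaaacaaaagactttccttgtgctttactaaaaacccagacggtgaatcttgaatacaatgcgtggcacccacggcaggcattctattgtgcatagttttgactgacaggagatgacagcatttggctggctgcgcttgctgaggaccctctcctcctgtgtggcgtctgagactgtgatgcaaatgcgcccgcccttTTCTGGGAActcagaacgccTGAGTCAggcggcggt
Gzmb: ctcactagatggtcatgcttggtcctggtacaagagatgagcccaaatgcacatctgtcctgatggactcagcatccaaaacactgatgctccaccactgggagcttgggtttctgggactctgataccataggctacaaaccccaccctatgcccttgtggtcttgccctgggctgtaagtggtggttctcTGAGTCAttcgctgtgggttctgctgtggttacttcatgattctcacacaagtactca
Areg: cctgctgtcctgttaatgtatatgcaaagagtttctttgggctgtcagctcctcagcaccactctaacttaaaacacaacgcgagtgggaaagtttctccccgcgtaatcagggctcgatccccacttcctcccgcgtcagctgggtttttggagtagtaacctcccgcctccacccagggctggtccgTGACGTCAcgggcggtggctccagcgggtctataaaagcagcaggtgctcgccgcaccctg

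Windows were matched for 8 of the 10 genes, with no entry used for Il10 and Penk, and those of Tgfb1, Ebi3, Il12a, Entpd1 and Nt5e held no AP-1, GAS or CRE match. The E-box CACGTG (6.02% of windows) and the NFAT core TGGAAA (18.6%) were not found in the windows of any member searched, the RUNX motif TGTGGT (14%) was found in the windows of Gzmb and of 1 start of Il12a, and the ETS core CCGGAA (12%) in that of Ebi3.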

How the data were processed

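RNA of 33 sorted libraries, 3 for each of 11 subsets, was amplified with a SMART-Seq v4 kit and sequenced in pairs. The authors deposited raw counts of read pairs per gene for each library in the layout of STAR, on mm10 with EGFP added, after FastQC and Trim Galore per the labels' processing notes, while the methods name HTSeq as the counter. The column over both strands was used. Symbols and coordinates came from the GRCm38 annotation, and 120 identifiers without a symbol, EGFP among them, were kept under their own names.

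Counts were tested with edgeR 4.0.16 in R 4.3.3 (TMM factors, quasi-likelihood F test, 1 mean per subset over all 33 libraries), on genes that reached 1 CPM in any library, with Benjamini-Hochberg adjustment over the 25347 genes of each comparison and a threshold of 0.05. The methods name edgeR's likelihood ratio test and ComBat-Seq, which were run as alternatives with limma 3.58.1 and sva 3.50.0, as was DESeq2 1.42.0. CPM were computed on TMM-scaled totals. Intervals of ratios are exact binomial intervals and cover counting error only, as PCR reads without molecular identifiers are not independent molecules. Replicate libraries were compared by chi-square and none were alike within sampling noise. The scripts were tested on simulated counts.

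The members and gene lists were chosen with earlier results of these data known. Named genes were the 10 members, at most 3 called genes of each list by smallest adjusted p, and the 3 genes most like each member. Tgfbr1, Gzmc, Gata3 and Id2 were named besides, to complete counts, after their values were seen. Promoter sequences are RefSeq's, on GRCm38.p6. The 3 libraries of a subset against 3 others could not reach an exact permutation p below 0.1, so no such test was used.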

Additional observations from a re-analysis of the deposited data

How the results depend on the processing

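Tregs against CD4+Foxp3- T cells gave 17 calls in 70 values of the 10 genes over 7 comparisons, beside 0.602% of the values of all genes. The number was 32 with DESeq2 (1.64% of all values), 27 with the compared libraries only (1.88%) and 44 with an unadjusted p under 0.01 and an absolute log2 fold change over 1.5 (2.79%), a second rule of the methods. It was 14 under the stricter filter (0.641%), which lost 3 calls, and 18 after ComBat-Seq (0.357%), which lost 4 and gained 5, and it ranged from 14 to 18 when single libraries were left out. Treg subsets of spleen and graft gave 0 calls (0.0829% of all values), and 2 under the second rule (2.15%). Treg subsets of the DLN gave 0 calls (0.575%), 4 with DESeq2 (3.04%), 3 under the second rule (3.21%), and 0 to 1 with libraries left out, the 1 being Il10 without DLN/CD127hi replicate 2. Tolerant against naive Foxp3- cells gave 2 calls (0.071% of all values), 3 with DESeq2 (Gzmb besides, 0.237%) and 1 to 2 with libraries left out. They gave 0 after ComBat-Seq (0.0382%), with the compared libraries only (0.0196%) and under the stricter filter (0.0153%). The interaction gave 0 calls (0.118%), and 1 with DESeq2 (1.16%) and under the second rule (2.26%), and it could not be fitted within 1 sequencer. The causes were not tested.

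The 19 called values kept their direction in all alternatives run. Of 190 values under other settings, 175 kept the call and 15 lost it, and of 177 values with a library left out, 164 kept it and 13 lost it. Nt5e and Entpd1 lost theirs between splenic Tregs and CD4+ T cells after ComBat-Seq (adjusted p = 0.304 and 0.182), and Il10 under the stricter filter (0.0663). The calls of Nt5e and Entpd1 were kept with the libraries of 1 sequencer only, which held all libraries compared there. The sequencer and the tissue cannot be told apart, and the depth of the DLN libraries limits genes near 3 counts.

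Replicate numbers are shared between subsets, and the libraries were treated as unpaired. No comparison had correlations of same-numbered libraries above 0.1 for all numbers. The highest were 0.305 and 0.214, for numbers 1 and 2 of SP/CD127-/lo Tregs and SP/tolerant CD4+ T cells, beside -0.0506 for number 3. This check cannot show that no libraries shared mice, and other pairings were not tested. With the replicate block, the calls were 20, 0, 0, 2 and 0 in the families above, beside 0.692%, 0.153%, 0.552%, 0.108% and 0.189% of the values of all genes. The calls gained were Il10 in 2 comparisons and Penk in 1.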
